A study of Arabidopsis thaliana with 48 samples.

Results

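The WRKY transcription factor family was followed through a translatome series of Arabidopsis thaliana roots. The 46 loci examined here were a list of WRKY genes matched by locus identifier to the deposited gene table, which held 33715 entries. They are 46 of the 72 loci whose RefSeq symbol or synonym contains WRKY, and the other WRKY loci were not analysed here. After the filter on low counts 44 of the 46 were tested among 20995 genes. WRKY12 had 2 counts and WRKY55 had 46 counts over all 48 libraries, and neither was tested.

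FLAG-tagged polysomes were immunopurified from the roots of 6-day-old seedlings, so that each library holds mRNA bound to ribosomes in the cells where a chosen promoter drives the tag. In each of 8 lines the roots were taken at 0, 3 or 8 h after addition of 100 nM brassinolide (BL), the most active brassinosteroid, with 2 libraries for each of the 24 groups. The Col-0 lines carried the tag under pBRN2 (root cap), pGL2 (non-hair epidermis), pSCR (endodermis), pSHR (stele) or the broadly active 35S promoter (whole root). In 3 further lines the background was Col-0, bri1-116, a mutant of the brassinosteroid receptor BRI1. BRI1 was restored there in the epidermis of pGL2(pGL2BRI1), and in the endodermis of pGL2(pSCRBRI1) and pSCR(pSCRBRI1), where the promoter before the parentheses is the one assigned to the tag. The submitters call the 2 libraries of a group biological repetitions. Whether each line was 1 transgenic insertion is not given in the sources used here.

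WRKY proteins are plant transcription factors named after the peptide motif in their DNA-binding domain, which recognises the W-box of promoters. Group I members carry a pair of these domains, groups II (subgroups IIa to IIe) and III carry a single domain, and IId members also bind calmodulin. The family is best known from immunity, where mitogen-activated and calcium-dependent protein kinases phosphorylate WRKY proteins, and small VQ proteins such as MKS1, SIB1 and SIB2 bind them. Other members act in phosphate supply (WRKY6, WRKY42, WRKY45, WRKY75), in secondary walls (WRKY12, WRKY13) and downstream of auxin (WRKY23). Links to brassinosteroids are known for WRKY40, a partner of the factor BZR1, and for WRKY46, WRKY54 and WRKY70, which act with BES1.

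Because many WRKY genes carry the family's own W-box, the 250 bases before the RefSeq gene start (assembly TAIR10.1) were read for all 46 loci and for all 27443 promoters of that annotation. That start can differ from the one in the deposited table. The W-box was searched as TTGACC or TTGACT on both strands. It lay in 17 of the 46 windows (37.0%), against 28.4% of all promoters. The G-box, searched as CACGTG, lay in 6 windows (13.0%), against 6.5% of all promoters. The brassinosteroid response element (BRRE), searched as CGTGTG or CGTGCG and bound by BZR1, lay in 7 windows (15.2%), against 6.7% of all promoters. A G-box and a BRRE that overlap were counted under both. In windows of 1000 bases the shares were 82.6% of members against 67.3% of all promoters for the W-box, 34.8% against 14.8% for the G-box and 30.4% against 21.1% for the BRRE. A match describes the letters only. The windows of 5 loci described below follow as examples, chosen after their values were seen, 5′ to 3′ on the strand of the gene, with the W-box in capitals. They lie at chr5:8154711-8154960 (minus strand, WRKY30), chr2:16107985-16108234 (plus, WRKY33), chr2:10439470-10439719 (minus, WRKY17), chr2:9924636-9924885 (plus, WRKY15) and chr5:4151202-4151451 (minus, WRKY75).
WRKY30: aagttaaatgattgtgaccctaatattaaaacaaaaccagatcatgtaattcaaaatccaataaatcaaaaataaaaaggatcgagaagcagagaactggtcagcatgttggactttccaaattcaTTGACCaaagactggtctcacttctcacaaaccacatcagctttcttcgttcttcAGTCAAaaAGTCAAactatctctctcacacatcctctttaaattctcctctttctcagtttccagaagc
WRKY33: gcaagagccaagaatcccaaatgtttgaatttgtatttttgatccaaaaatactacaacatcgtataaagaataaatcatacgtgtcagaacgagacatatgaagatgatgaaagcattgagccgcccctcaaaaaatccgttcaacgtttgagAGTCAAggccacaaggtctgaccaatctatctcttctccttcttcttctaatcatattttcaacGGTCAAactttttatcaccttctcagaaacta
WRKY17: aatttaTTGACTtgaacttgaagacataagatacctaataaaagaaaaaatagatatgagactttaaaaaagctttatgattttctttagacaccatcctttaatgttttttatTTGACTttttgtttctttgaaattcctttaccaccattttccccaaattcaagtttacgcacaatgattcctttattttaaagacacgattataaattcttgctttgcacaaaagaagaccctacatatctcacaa
WRKY15: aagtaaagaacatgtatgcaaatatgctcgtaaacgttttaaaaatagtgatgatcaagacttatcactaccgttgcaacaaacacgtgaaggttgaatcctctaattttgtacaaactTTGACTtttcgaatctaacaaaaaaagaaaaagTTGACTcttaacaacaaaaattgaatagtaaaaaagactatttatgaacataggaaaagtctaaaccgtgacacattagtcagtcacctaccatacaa
WRKY75: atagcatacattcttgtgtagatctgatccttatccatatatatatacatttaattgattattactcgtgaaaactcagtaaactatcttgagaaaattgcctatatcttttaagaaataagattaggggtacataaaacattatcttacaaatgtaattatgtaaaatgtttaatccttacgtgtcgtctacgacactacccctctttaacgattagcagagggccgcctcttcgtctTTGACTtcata
The WRKY30 window held 3 W-boxes, 124, 69 and 61 bases before the gene start. WRKY33 held W-boxes 96 and 32 bases before its start, WRKY17 at 244 and 136, WRKY15 at 131 and 98, and WRKY75 had 1 at 11.

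Both BL-related motifs are shown for WRKY43 at chr2:18956962-18957211 (plus strand), and the BRRE alone for WRKY40 at chr1:30383311-30383560 (plus strand), again 5′ to 3′ with the G-box and BRRE in capitals.
WRKY43: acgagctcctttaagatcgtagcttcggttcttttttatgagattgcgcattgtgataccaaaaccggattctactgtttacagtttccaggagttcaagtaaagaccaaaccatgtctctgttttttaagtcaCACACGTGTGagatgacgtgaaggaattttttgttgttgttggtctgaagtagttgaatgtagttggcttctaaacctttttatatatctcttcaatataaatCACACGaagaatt
WRKY40: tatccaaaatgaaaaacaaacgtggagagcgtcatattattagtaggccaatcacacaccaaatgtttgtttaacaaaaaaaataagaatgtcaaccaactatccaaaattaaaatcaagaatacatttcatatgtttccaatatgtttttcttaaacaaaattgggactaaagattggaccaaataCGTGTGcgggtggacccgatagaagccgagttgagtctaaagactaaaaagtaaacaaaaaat
In the WRKY43 window a G-box 114 bases before the gene start overlapped BRREs on both strands at 116 and 112, and a further BRRE lay at 13. The WRKY40 window held 1 BRRE, 63 bases before the start.

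The libraries held 20556381 to 37685541 counts. Levels are given as CPM, the read count of a gene relative to a common library size, scaled by the trimmed mean of M-values (TMM), and compared between genes only after division by exon length in kilobases. A gene counts as higher or lower where the quasi-likelihood test of edgeR, fitted to all libraries, gave a Benjamini-Hochberg adjusted p below 0.05 over the 20995 genes. Log2 changes are given ± a standard error derived from the test, as the absolute log2 change divided by the square root of its F statistic. Marker genes followed the labels of the Col-0 lines. Summed root cap markers ran from 2350 to 4070 CPM in pBRN2, against 164 to 392 in 35S. The pBRN2 libraries also had more non-hair epidermis markers than whole root, at 87.3 to 214 CPM, against 35.7 to 79.7 in 35S. Stele markers ran from 1770 to 2470 CPM in pSHR, against 328 to 444 in 35S. The libraries labelled pGL2(pSCRBRI1) went against their label, with non-hair epidermis markers at 4.74 to 7.61 CPM, against 151 to 395 in pGL2, and endodermis markers at 5310 to 8420 CPM, against 67.8 to 172 in pGL2. Endodermis markers also spanned 125 to 2440 CPM among the pGL2(pGL2BRI1) libraries, highest in 0 h replicate 2, 3 h replicate 1 and 8 h replicate 2. These are the libraries of that line without the note of 51-base reads, which the others carry, so the markers and the note go together there. Green tissue markers summed to 410.9 CPM in 35S 3 h replicate 1 and 551.9 CPM in 35S 8 h replicate 2, against 33.8 to 86.3 CPM in the other 4 libraries of 35S. Results on these lines are given with that in view. Where cells differ in number or in RNA content, the effects of cell number and of RNA per cell on such libraries cannot be told apart. Counting did not use strand, so reads of WRKY1, WRKY33, WRKY40, WRKY53 and WRKY69 cannot be told apart from those of an entry that overlaps each of them.

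The summed level of the WRKY loci was highest in the epidermis and the root cap. The CPM of all 46 loci summed to 957 to 1180 (median 1080) in the 6 pBRN2 libraries, 1260 to 1600 (median 1430) in pGL2, 422 to 539 (median 483) in pSCR and 273 to 308 (median 296) in pSHR, against 615 to 666 (median 633) in 35S. The ranges of the 5 Col-0 lines did not overlap. A few genes carried much of the sum. By mean CPM over all libraries, not divided by exon length, the 5 that added most were WRKY17, WRKY65, WRKY11, WRKY9 and WRKY39. These 5 summed to 526 to 792 CPM in pBRN2 and 645 to 905 CPM in pGL2, against 278 to 326 CPM in 35S. The other 41 loci summed to 356 to 439 CPM in pBRN2, which overlapped the 293 to 370 CPM of 35S, and to 592 to 707 CPM in pGL2. Among the lines with restored BRI1, pGL2(pGL2BRI1) ran from 1190 to 1760 CPM and overlapped pGL2, while pGL2(pSCRBRI1) ran from 511 to 724 and pSCR(pSCRBRI1) from 426 to 558.

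**Figure D1:**
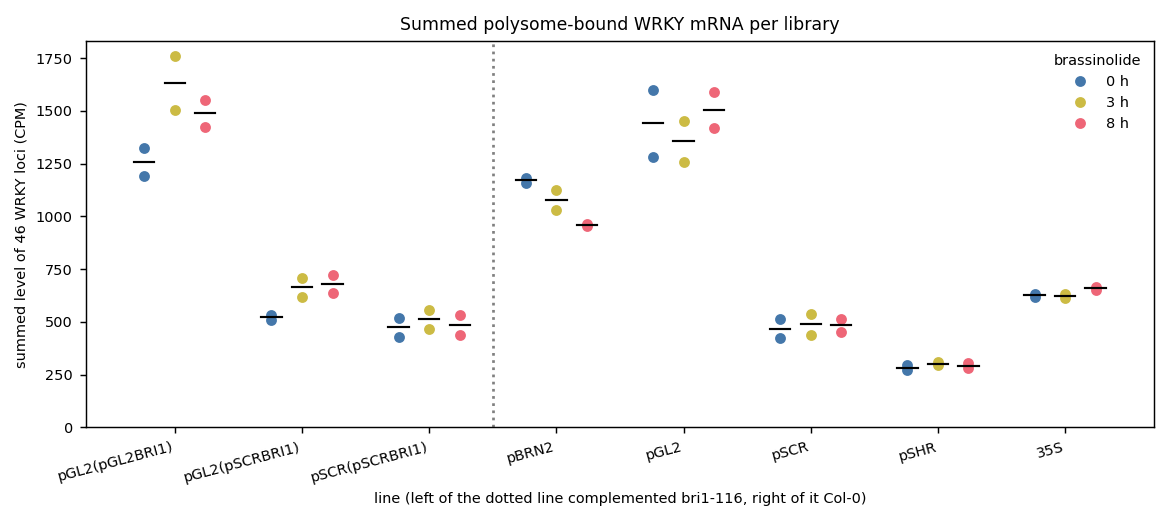
Summed CPM of the 46 WRKY loci in each of the 48 libraries, by line on the horizontal axis and by hours of BL. The lines with restored BRI1 stand left of the dotted line and the Col-0 lines right of it; the pGL2 libraries lie between 1260 and 1600 CPM and the pSHR libraries between 273 and 308.

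Per kilobase of exon, WRKY17, a IId repressor of basal defence, was the most abundant member at 0 h in pBRN2 (196 CPM per kb), in pGL2 (159 CPM per kb) and in 35S (69.0 CPM per kb). In pSCR the leading members were WRKY15 at 62.1 CPM per kb and WRKY43 at 60.7 CPM per kb. In pSHR it was WRKY39, with 35.8 CPM per kb.

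**Figure D2:**
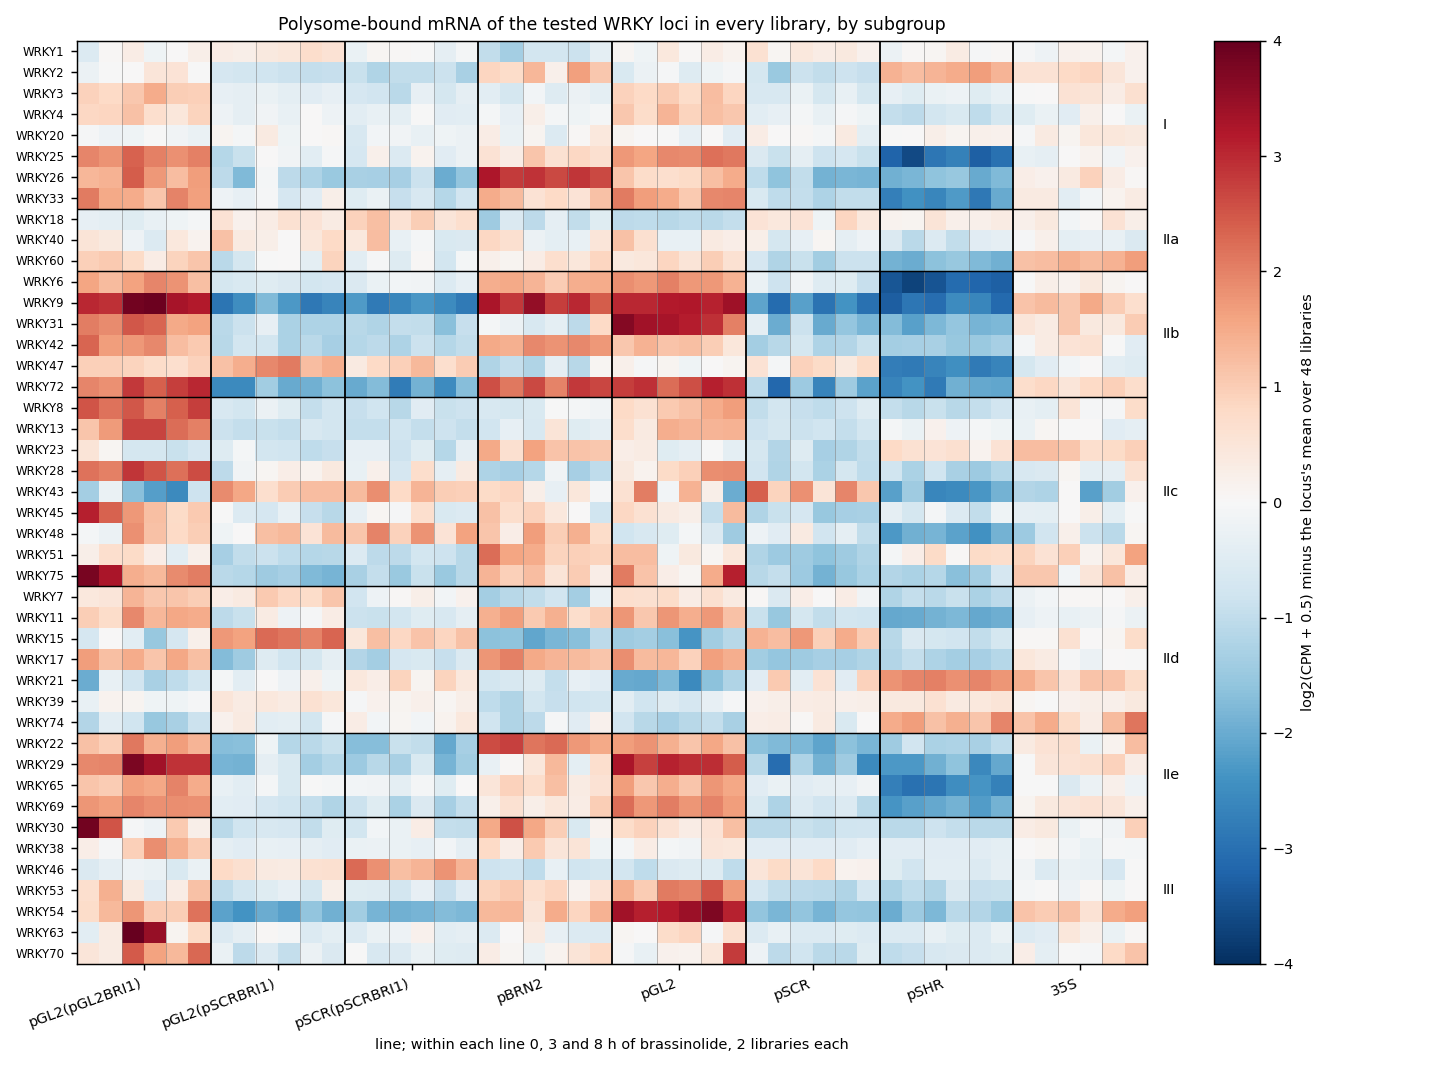
Level of the 44 tested WRKY loci (rows, ordered by subgroup) in the 48 libraries (columns, ordered by line and hours of BL), as log2(CPM + 0.5) minus the mean of the locus over all libraries. Most loci of subgroups IIb and IIe are above their mean in the pGL2 and pBRN2 columns and below it in the pSHR columns.

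Differences among the 4 tissue fractions at 0 h were found for 43 of the 44 tested members, all but WRKY20, a group I gene (adjusted p = 0.924), where 82.7% of all tested genes differed. WRKY20 ran only from 8.27 to 12.9 CPM over the 10 Col-0 libraries at 0 h. Each fraction was then set against whole root, all at 0 h. Gene positions below are those of the deposited table, in TAIR10.

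In the non-hair epidermis 24 members were higher and 9 lower than in whole root, so that 33 of 44 differed, against 48.9% of all tested genes (23% higher and 25.9% lower). The median log2 change of the 44 members was 1.1, against −0.12 for all genes. All 6 tested IIb members and all 4 IIe members were higher, while the IId members split into 3 higher and 4 lower. Of the IIb genes, WRKY47 lost its call without any 1 of the 4 libraries (adjusted p 0.0534 to 0.232) and WRKY42 without 35S replicate 1 (adjusted p = 0.0829). WRKY31 (AT4G22070, chromosome 4, 11691378 to 11694392), a IIb gene, had 33.9 and 27.1 CPM in pGL2, against 3.31 and 2.91 CPM in 35S. WRKY29, a IIe gene that acts below the flagellin receptor FLS2, had 39.2 and 26.9 CPM in pGL2, against 3.57 and 5.32 CPM in 35S. WRKY54 (AT2G40750, chromosome 2, 17000454 to 17002468), a group III regulator of salicylic acid responses, had 26.7 and 22.2 CPM in pGL2, against 5.32 and 4.76 CPM in 35S. The pGL2 and 35S libraries did not overlap for any of these genes. The log2 changes were 3.29 ± 0.572 for WRKY31 (adjusted p = 2.66e-05), 2.90 ± 0.535 for WRKY29 (adjusted p = 5.92e-05) and 2.28 ± 0.425 for WRKY54 (adjusted p = 5.98e-05).

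WRKY43 (AT2G46130, chromosome 2, 18957226 to 18957911), a short IIc gene, had 16.0 and 44.4 CPM in pGL2, against 4.33 and 4.10 CPM in 35S, a log2 change of 2.84 ± 0.793. WRKY72, a IIb gene linked to basal defence, was higher by 2.11 ± 0.459 on the log2 scale. WRKY63 rested on 14 counts in pGL2 and 1 count in 35S, a ratio of 18.4 with a 95% interval of 2.80 to 779 that covers counting error only. Among the abundant members, WRKY17 (log2 change 1.2 ± 0.204), WRKY65 (1.43 ± 0.238) and WRKY11 (1.74 ± 0.241) were higher in the epidermis. The lower members included WRKY21, a IId gene with 1.34 and 1.31 CPM in pGL2, against 19.9 and 15.7 CPM in 35S. Its log2 change was −3.74 ± 0.543. The related IId genes WRKY74 (−3.55 ± 0.689) and WRKY15 (−1.47 ± 0.354) were lower as well, as were WRKY18 (−1.57 ± 0.309) and WRKY2 (−1.22 ± 0.355). WRKY46 had 3 counts in pGL2, against 22 in 35S, a ratio of 0.179 with an interval of 0.0344 to 0.597. Of the 33 called members 19 passed without each single library in turn. WRKY63 lost its call without any 1 of the 4 libraries (adjusted p 0.072 to 0.219), WRKY43 without pGL2 replicate 2 (log2 change 1.92, adjusted p = 0.0812), WRKY2 without pGL2 replicate 1 (adjusted p = 0.0851), and WRKY46 without 35S replicate 1 (adjusted p = 0.253) or pGL2 replicate 2 (adjusted p = 0.237).

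In the root cap 17 members were higher and 9 lower than in whole root, or 26 of 44, against 41% of all tested genes (18.1% higher and 22.9% lower). The median log2 change of the members was 0.25, against −0.14 for all genes. The part of the epidermis markers in pBRN2 in these differences was not tested. WRKY26 (AT5G07100, chromosome 5, 2204248 to 2205811), a group I gene linked to heat responses together with WRKY25 and WRKY33, had 33.9 and 25.2 CPM in pBRN2, against 3.91 and 3.63 CPM in 35S. WRKY22, a IIe gene downstream of the immune kinase cascade, had 20.5 and 22.4 CPM in pBRN2, against 3.94 and 4.64 CPM in 35S. WRKY9 (AT1G68150, chromosome 1, 25543969 to 25545717), a IIb gene linked to suberin, had 176 and 130 CPM in pBRN2, against 39.8 and 43.7 CPM in 35S. The root cap and whole root libraries did not overlap for any of these genes. Their log2 changes were 2.97 ± 0.362 for WRKY26 (adjusted p = 2.23e-07), 2.32 ± 0.370 for WRKY22 (adjusted p = 1.21e-05) and 1.88 ± 0.328 for WRKY9 (adjusted p = 4.1e-05).

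WRKY30 (AT5G24110, chromosome 5, 8153115 to 8154709), a group III gene induced by oxidative stress, had 2.53 and 5.62 CPM in pBRN2, against 0.808 and 0.877 CPM in 35S, a log2 change of 2.27 ± 0.628. WRKY48, a IIc repressor of basal defence, had a log2 change of 2.20 ± 0.567 and WRKY43 one of 2.15 ± 0.778. The abundant WRKY17 and WRKY11, a pair of IId genes that act together in defence, were higher by 1.5 ± 0.206 and 1.81 ± 0.241. The most strongly lower members were again mainly IId genes, with log2 changes of −3.74 ± 0.704 for WRKY74, −2.09 ± 0.489 for WRKY21, −1.71 ± 0.357 for WRKY15, −1.14 ± 0.158 for WRKY39 and −1.10 ± 0.253 for WRKY7. WRKY18, a IIa gene that works with WRKY40 and WRKY60 in defence, was lower by a log2 change of −1.46 ± 0.307. Of the 26 calls 16 passed without each single library. WRKY43 lost its call without any 1 of the 4 libraries (adjusted p 0.0663 to 0.123), WRKY30 without pBRN2 replicate 2 (log2 change 1.58, adjusted p = 0.0911), and WRKY48 without 35S replicate 1 (adjusted p = 0.0605) or pBRN2 replicate 1 (adjusted p = 0.0555).

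In the endodermis 4 members were higher and 22 lower than in whole root, or 26 of 44, against 34.4% of all tested genes (12.4% higher and 22% lower). The median log2 change of the members was −1.20, against −0.05 for all genes. The 4 higher members were WRKY43, WRKY46, WRKY15 and WRKY47. WRKY15 (AT2G23320, chromosome 2, 9924933 to 9926372), a IId gene linked to growth and salt stress, had 83.4 and 76.2 CPM in pSCR, against 32.6 and 33.1 CPM in 35S. WRKY46, a group III gene with roles in drought and in lateral root growth under stress, had 0.924 and 1.21 CPM in pSCR, against 0.417 and 0.188 CPM in 35S. WRKY43 had 56.3 and 19.9 CPM in pSCR, against 4.33 and 4.10 CPM in 35S. The endodermis libraries were above the whole root ones for each, although the pair of WRKY43 values lay far apart. The log2 changes were 1.28 ± 0.347 for WRKY15 (adjusted p = 0.00433), 1.78 ± 0.627 for WRKY46 (adjusted p = 0.0268), 3.18 ± 0.802 for WRKY43 (adjusted p = 0.00257) and 0.95 ± 0.299 for WRKY47 (adjusted p = 0.0128).

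WRKY9 had 3.78 and 1.68 CPM in pSCR, against 39.8 and 43.7 CPM in 35S, and its log2 change was −3.92 ± 0.373. WRKY54 had a log2 change of −4.01 ± 0.571, WRKY51, a IIc gene of salicylic acid and jasmonate cross-talk, one of −3.83 ± 0.618, and WRKY42 one of −3.04 ± 0.597. WRKY30 had no count in the pSCR libraries and 59 in those of 35S, which makes it at least 12.6-fold lower with a floor of 3 counts over the group. By the same floor WRKY38, with 0 counts in pSCR and 14 in 35S, was at least 3.0-fold lower. The abundant WRKY17 had 30.3 and 27.2 CPM in pSCR, against 110 and 102 CPM in 35S, a log2 change of −1.89 ± 0.210. WRKY11 (−0.92 ± 0.238) was lower too, and WRKY15 was named above. Of the 26 calls 16 passed without each single library. WRKY43 lost its call without pSCR replicate 1 (log2 change 2.23, adjusted p = 0.0607), WRKY46 without 35S replicate 2 (adjusted p = 0.209) or pSCR replicate 2 (adjusted p = 0.11), WRKY47 without 35S replicate 1 (adjusted p = 0.12) or pSCR replicate 1 (adjusted p = 0.285), WRKY38 without pSCR replicate 1 (adjusted p = 0.0732) or 2 (adjusted p = 0.0586), and WRKY11 without pSCR replicate 2 (adjusted p = 0.0992). The edgeR call of WRKY46 was also lost with the read note as a covariate (adjusted p = 0.0664).

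In the stele no member was higher than in whole root and 26 were lower, where 26.6% of all tested genes differed, 7.73% being higher and 18.9% lower. The median log2 change of the members was −1.86, against 0.03 for all genes. All 6 IIb members and all 4 IIe members were lower. WRKY6 (AT1G62300, chromosome 1, 23016683 to 23019279), a IIb factor that controls the phosphate exporter gene PHO1, had 2.35 and 1.85 CPM in pSHR, against 29.7 and 35.2 CPM in 35S. WRKY9 had 1.38 and 2.00 CPM in pSHR, against 39.8 and 43.7 CPM in 35S. WRKY31 had 0.304 and 0.0923 CPM in pSHR, against 3.31 and 2.91 CPM in 35S. The stele libraries lay far below those of whole root for each of these genes. The log2 changes were −3.95 ± 0.248 for WRKY6 (adjusted p = 3.04e-13), −4.63 ± 0.384 for WRKY9 (adjusted p = 5.92e-11) and −3.92 ± 0.738 for WRKY31 (adjusted p = 0.00011). WRKY54 was lower by a log2 change of −4.01 ± 0.538. WRKY30 and WRKY38 had no count in pSHR and were at least 19.2-fold and at least 4.55-fold lower than in 35S. Among the abundant genes WRKY17 (−1.46 ± 0.206), WRKY65 (−2.88 ± 0.254) and WRKY11 (−1.80 ± 0.243) were lower. Of the 26 calls 19 passed without each single library, and among the genes named here WRKY38 lost its call without pSHR replicate 1 (adjusted p = 0.051).

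**Figure D3:**
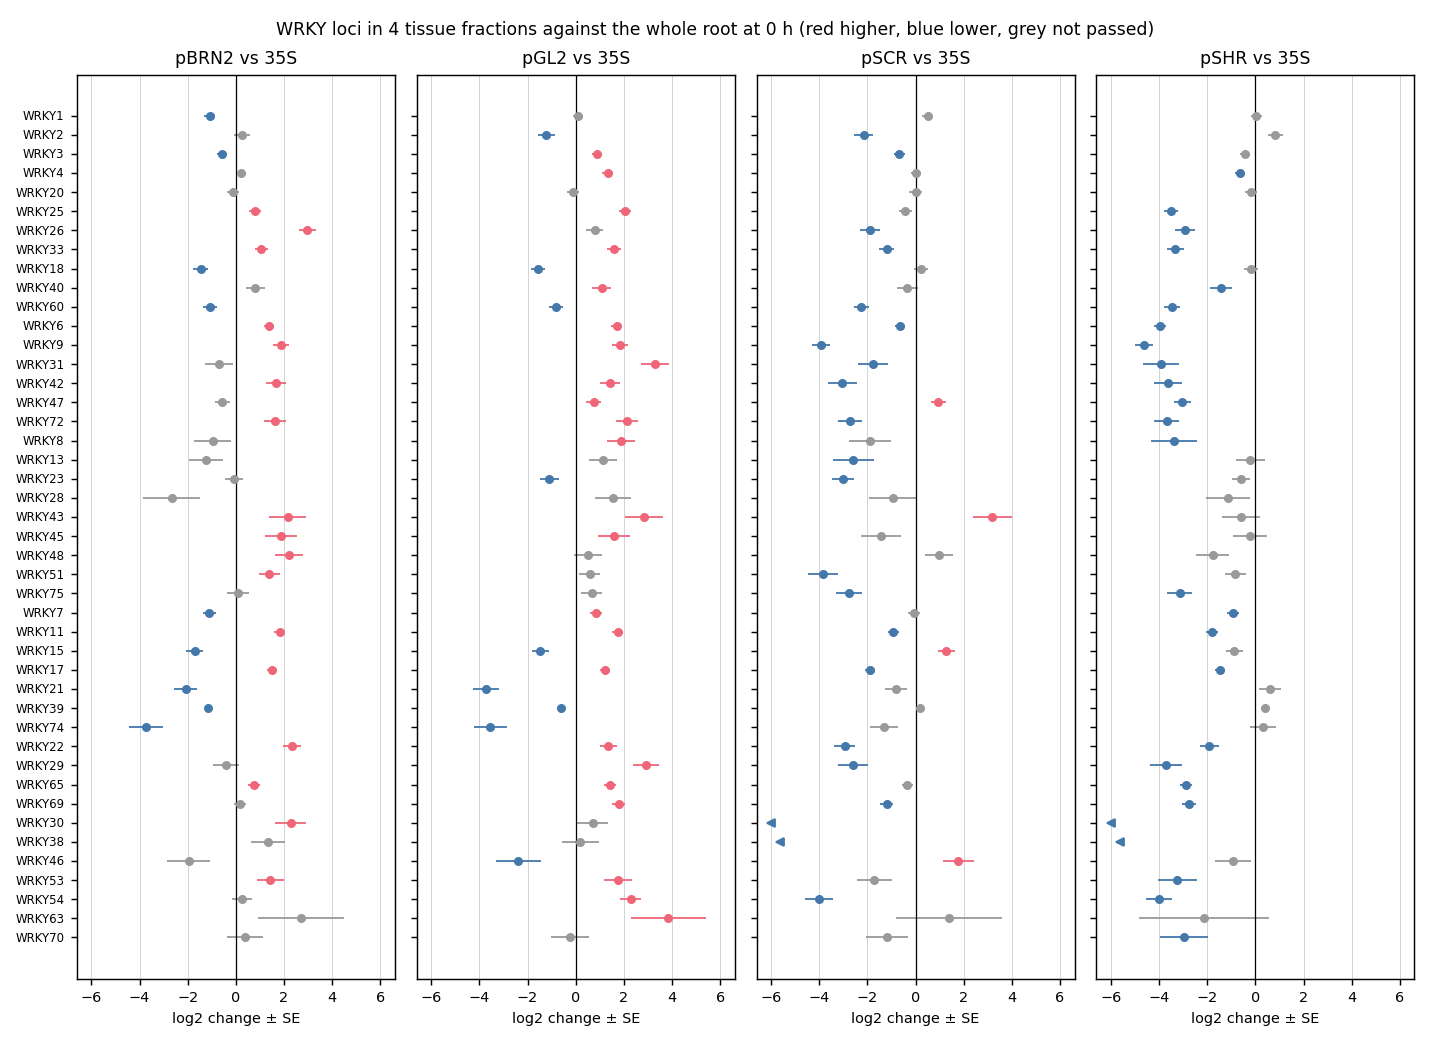
Log2 change ± standard error of each tested WRKY locus in pBRN2, pGL2, pSCR and pSHR against 35S at 0 h (2 libraries a group), with loci ordered by subgroup. Left-pointing triangles mark WRKY30 and WRKY38 in fractions with 0 counts, drawn at the edge with no error bar; in the pSHR panel no called locus lies right of 0.

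The 4 comparisons share the same pair of 35S libraries, so calls that recur across them were not counted. WRKY33 (AT2G38470, chromosome 2, 16108361 to 16110766), the group I factor that drives synthesis of the defence compound camalexin, is shown across the fractions. It had 29.8 and 26.0 CPM in pBRN2, 46.1 and 34.1 CPM in pGL2, 6.72 and 4.90 CPM in pSCR and 1.13 and 1.54 CPM in pSHR, against 13.4 and 13.4 CPM in 35S. None of the 5 ranges overlapped. WRKY33 was called as higher in pBRN2 and pGL2 and lower in pSCR and pSHR, but the pSCR call was lost without pSCR replicate 2 (adjusted p = 0.0542). WRKY9, WRKY17 and WRKY22 had calls in the same directions, and kept all 4 of them without each single library. WRKY6 lost its call in pSCR without 35S replicate 2 (adjusted p = 0.171) or pSCR replicate 2 (0.289), with RLE scaling (0.0509) and in the fit of the compared groups only (0.155). In pSCR the call of WRKY11 was also lost in the fit of the compared groups only (0.0525). WRKY72 lost its call in pBRN2 without 35S replicate 1 (0.0536) or pBRN2 replicate 1 (0.0501). WRKY39, a IId gene, lost its call as lower in pGL2 without pGL2 replicate 2 (0.0657). WRKY60, a IIa gene linked to abscisic acid, was lower than whole root in each fraction, but its call in pGL2 was lost without any 1 of the 4 libraries (adjusted p 0.0633 to 0.103) and with the read note as a covariate (0.0576).

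Without reference to whole root, members were sought that had both 0 h libraries of 1 fraction above all libraries of the other 3. Of all tested genes 15.3% met this for the root cap, 18.1% for the epidermis, 10.5% for the endodermis and 21.9% for the stele. The epidermis held 17 of the 44 tested members. They were WRKY3, WRKY4, WRKY6, WRKY7, WRKY8, WRKY13, WRKY25, WRKY28, WRKY29, WRKY31, WRKY33, WRKY54, WRKY60, WRKY63, WRKY65, WRKY69 and WRKY72, and the mean of each was also highest in pGL2 at 3 h and at 8 h. The root cap held 7, namely WRKY22, WRKY26, WRKY30, WRKY42, WRKY48, WRKY51 and WRKY70, of which 6 had their highest mean in pBRN2 at 3 h and 5 at 8 h. The endodermis held WRKY15, WRKY18 and WRKY46, of which 2 were highest in pSCR at 3 h and 3 at 8 h. The stele held WRKY2, WRKY21, WRKY39 and WRKY74, all 4 of which were highest in pSHR at 3 h and at 8 h. These members were chosen by their 0 h maximum. How many of all genes chosen in this way stayed highest at 3 h and 8 h was not computed. WRKY2, a group I factor known from pollen and from embryo polarity, had 5.91 and 5.26 CPM in pSHR, against at most 3.91 CPM in the other fractions. WRKY21 had 25.5 and 28.4 CPM in pSHR, 5.04 and 15.2 CPM in pSCR, 4.05 and 4.30 CPM in pBRN2 and 1.34 and 1.31 CPM in pGL2.

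The tested members named above for phosphate, secondary walls or auxin all had their highest 0 h mean among the fractions in pGL2 or pBRN2. The libraries of that fraction were not all above the rest for WRKY23, WRKY45 and WRKY75. Most tested members had their highest mean in pGL2 (20 of 44) or pBRN2 (13), so this does not set the named genes apart. The share among all genes was not computed. Of the phosphate genes, WRKY75 had 9.28 and 4.67 CPM in pGL2 and 5.42 and 4.02 CPM in pBRN2, but 0.588 and 0.700 CPM in pSCR and 0.525 and 0.462 CPM in pSHR, against 4.46 and 4.39 CPM in 35S. It was lower than whole root in pSCR (log2 change −2.78 ± 0.543) and in pSHR (−3.15 ± 0.535). WRKY42 was highest in pBRN2, with 3.73 and 3.45 CPM. WRKY13, a regulator of stem secondary walls, had 1.1 and 0.738 CPM in pGL2, above the other fractions, and 0.414 and 0.308 CPM in pSHR, where xylem lies. WRKY23, an auxin-responsive factor, was lower than in whole root in pGL2 (log2 change −1.11 ± 0.394) and pSCR (−3.02 ± 0.461). The WRKY23 call in pGL2 was lost without any 1 of the 4 libraries (adjusted p 0.0605 to 0.101).

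In the fit without replicate pairing, few members changed after BL in any single line. A replicate block or a crossed pairing, given in the last section, called more members in several lines and in the Col-0 mean. Every comparison with 0 h joins BL with the elapsed time, since untreated libraries of 3 or 8 h were not analysed here. In whole root the unpaired fit called no member at 3 h or at 8 h, where it called 0.31% and 0.429% of all genes. At an unadjusted p below 0.05, 5 members stood out at 3 h and 4 at 8 h, and DESeq2 called 0 at both times. Without 3 h replicate 1 or 8 h replicate 2, the libraries rich in green tissue markers, 0 members were called as well. In the endodermis edgeR called 0 members at each time (0.0429% and 0.0667% of all genes), with 0 at an unadjusted p below 0.05 and 0 by DESeq2. In the stele it called 0 at each time (0.0191% of all genes at both), with 1 and 0 at an unadjusted p below 0.05 and 0 by DESeq2. In the root cap and in the epidermis 0 members were called at 3 h (0.915% and 0.981% of all genes). At an unadjusted p below 0.05 there were 7 in each, and DESeq2 called 0 in the root cap and WRKY40 in the epidermis.

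At 8 h the root cap and the epidermis had 1 called member each, where 1.12% and 3.87% of all genes were called. WRKY30 had 2.53 and 5.62 CPM at 0 h, 2.60 and 1.59 CPM at 3 h and 0.199 and 0.656 CPM at 8 h in pBRN2. The 8 h libraries lay below all others, and the log2 change of WRKY30 at 8 h was −3.16 ± 0.671 (adjusted p = 0.0155). The call was lost without pBRN2 0 h replicate 2 (log2 change −2.48, adjusted p = 0.189) and without 8 h replicate 1 (−2.63, adjusted p = 0.0639). With the replicate number as a block WRKY30 was called together with WRKY11 and WRKY17, 3 members in all, 0 higher and 3 lower. WRKY70, a group III gene that balances salicylic acid and jasmonate responses, had 0.585 and 0.410 CPM at 0 h, 0.759 and 0.744 CPM at 3 h and 1.03 and 7.29 CPM at 8 h in pGL2. Replicate 2 at 8 h was far above the rest, and the log2 change was 3.05 ± 0.746 (adjusted p = 0.0173). Without that library, 8 h replicate 2, the log2 change of WRKY70 was 1.03 (adjusted p = 0.865), and the call was also lost without 0 h replicate 1 (adjusted p = 0.092) or 2 (adjusted p = 0.255).

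Averaged over the 5 Col-0 lines, 5 of 44 members changed at 3 h (11.4%), a share close to the 11.6% of all tested genes. WRKY75 (AT5G13080, chromosome 5, 4149740 to 4151150), a IIc gene induced by phosphate starvation, was lower, with 1.65 and 2.72 CPM at 3 h, against 4.46 and 4.39 CPM at 0 h, in 35S. In pGL2 it had 2.28 and 1.94 CPM at 3 h, against 9.28 and 4.67 CPM at 0 h. The 3 h libraries lay below those of 0 h in both lines, all 5 lines had a negative log2 change, and the mean of −0.95 ± 0.247 (adjusted p = 0.0115) passed without each of the 20 libraries in turn. WRKY40, the IIa gene with a BRRE in its promoter window, had 0.904 and 0.910 CPM at 3 h, against 3.37 and 2.21 CPM at 0 h, in pGL2. In pBRN2 it had 0.959 and 0.814 CPM at 3 h, against 2.53 and 2.17 CPM at 0 h. These pairs did not overlap, and the mean log2 change of WRKY40 was −0.71 ± 0.196 (adjusted p = 0.0177), negative in 3 of the 5 lines. It was lost without pSCR 0 h replicate 1 (adjusted p = 0.0762) and without pSHR 0 h replicate 1 (adjusted p = 0.0815).

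The other 3 changes at 3 h were smaller. WRKY25, a group I gene of heat tolerance, had 64.0 and 62.2 CPM at 3 h, against 56.0 and 50.1 CPM at 0 h, in pGL2. Its log2 change was positive in all 5 lines, with a mean of 0.41 ± 0.116 (adjusted p = 0.0194). WRKY17 (mean −0.31 ± 0.0906, adjusted p = 0.0232) and WRKY33 (−0.42 ± 0.135, adjusted p = 0.043) were negative in 4 of 5 lines each. WRKY25 lost its call without pBRN2 3 h replicate 1 (adjusted p = 0.0542), pSCR 0 h replicate 2 (0.0527), pSCR 3 h replicate 1 (0.066) or pSHR 0 h replicate 2 (0.0616). WRKY17 lost its call without any 1 of 5 libraries (adjusted p 0.0502 to 0.0753), namely pBRN2 0 h replicate 2, pGL2 0 h replicate 1, pGL2 3 h replicate 2, pSCR 3 h replicate 1 and pSHR 0 h replicate 2. Without 35S 3 h replicate 1, rich in green tissue markers, 5 members were again called, with WRKY4 in place of WRKY33. WRKY33 passed without each of 7 libraries and was lost without each of the other 13 (adjusted p 0.0571 to 0.121).

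At 8 h, 3 of 44 members had changed on average (6.82%), against 9.63% of all genes. WRKY8, a IIc gene of defence and salt tolerance, had 2.5 and 2.95 CPM at 8 h, against 1.38 and 1.15 CPM at 0 h, in pGL2. In pBRN2 it had 0.517 and 0.479 CPM at 8 h, against 0.181 and 0.161 CPM at 0 h. The 8 h values were above those of 0 h in both lines, and the mean log2 change of WRKY8 was 1.31 ± 0.373 (adjusted p = 0.0239), positive in all 5 lines. Its changes in pSCR (0.88 ± 0.997) and pSHR (1.61 ± 1.15) rested on few counts. At 0 h WRKY8 had 0.042 and 0.14 CPM in pSCR and 0.0552 and 0 CPM in pSHR. WRKY70 had a mean of 1.25 ± 0.404 (adjusted p = 0.0463), positive in 4 of 5 lines, and passed without each of only 5 of the 20 libraries. The call of WRKY70 was also lost with the replicate block (1.19, adjusted p = 0.0568), with no filter (0.0568) and in the fit of the compared groups only (0.0857), and that of WRKY39 was lost with no filter (0.067) and in the compared groups (0.0946). The lowest WRKY70 value was 0.81 (adjusted p = 0.473), without pSCR 8 h replicate 2. WRKY39 rose by 0.23 ± 0.0697 (adjusted p = 0.0349), positive in all 5 lines, and passed without each of 11 libraries. WRKY8 lost its call without pSCR 8 h replicate 2 (adjusted p = 0.0639), pSHR 0 h replicate 2 (0.0568) or pSHR 8 h replicate 2 (0.128). Without 35S 8 h replicate 2, rich in green tissue markers, WRKY8 alone was called. Whether the response differed among the 5 lines was tested directly, and edgeR called no member at 3 h or at 8 h, where 0.0286% and 0.143% of all genes differed. At an unadjusted p below 0.05 there were 1 and 4 members, the smallest adjusted p values were 1.0 and 0.318, and DESeq2 called 0 members at 3 h and WRKY30 at 8 h. The crossed pairing of the last section, added after seeing the data, also called members for this difference at 8 h.

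**Figure D4:**
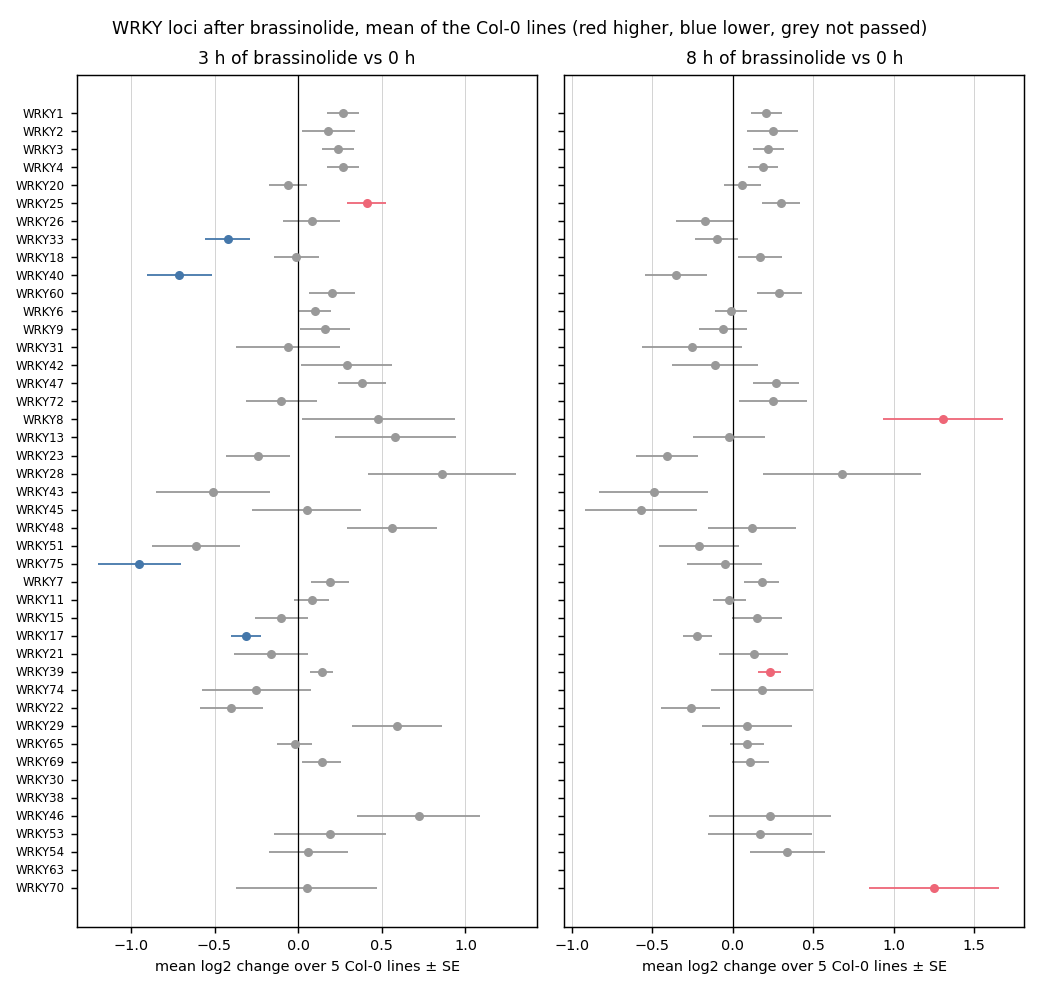
Mean log2 change ± standard error over the 5 Col-0 lines at 3 h and at 8 h of BL against 0 h (10 libraries a time), for 41 tested WRKY loci. WRKY30, WRKY38 and WRKY63 are left out because a Col-0 group had 0 counts; WRKY75 at 3 h (−0.95) and WRKY8 at 8 h (1.31) are among the loci farthest from 0.

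In the line with BRI1 restored in the epidermis, pGL2(pGL2BRI1), 4 members changed at 3 h, where 2.72% of all genes did. WRKY63 (AT1G66600, chromosome 1, 24848320 to 24849364), a group III gene of abscisic acid and drought responses, had 0.0457 and 0.412 CPM at 0 h, 19.0 and 7.65 CPM at 3 h and 0.283 and 0.742 CPM at 8 h. The 3 h pair stood above every other library of the series, in which WRKY63 did not exceed 0.827 CPM. WRKY30 had 14.9 and 5.6 CPM at 0 h, 0.523 and 0.419 CPM at 3 h and 1.70 and 0.742 CPM at 8 h, and the 0 h pair stood above both later pairs. The log2 changes at 3 h were 5.80 ± 0.920 for WRKY63 and −4.44 ± 0.704 for WRKY30, each with an adjusted p of 0.000482, and both passed without each single library. In the fit of the compared groups only, both calls were lost (adjusted p = 0.15 for WRKY63 and 0.0575 for WRKY30), as was that of WRKY38 (0.159), and the 2 members called were WRKY75 and WRKY29. WRKY75 had 31.8 and 22.1 CPM at 0 h, 5.89 and 5.26 CPM at 3 h and 8.11 and 9.20 CPM at 8 h, a log2 change of −2.27 ± 0.460 at 3 h (adjusted p = 0.00418). WRKY38, a group III repressor of basal defence, had 0.320 and 0.165 CPM at 0 h, 0.808 and 1.98 CPM at 3 h and 1.33 and 0.890 CPM at 8 h, a log2 change of 2.53 ± 0.681 at 3 h (adjusted p = 0.0414). The 3 h and 0 h pairs did not overlap for either gene.

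At 8 h WRKY30 was the single called member of pGL2(pGL2BRI1), with a log2 change of −3.05 ± 0.636 (adjusted p = 0.00994), where 1.39% of all genes were called. Since the libraries of this line varied in endodermis markers, each change was recomputed without the 3 libraries richest in them, which leaves 1 library at each time. WRKY30 then had log2 changes of −5.15 at 3 h (adjusted p = 0.0155) and −3.12 at 8 h (adjusted p = 0.104), WRKY63 a fitted one of 7.25 (adjusted p = 0.0431), WRKY75 one of −2.61 (adjusted p = 0.0977) and WRKY38 one of 2.60 (adjusted p = 0.341). For WRKY63 that rests on 201 counts at 3 h and 1 count at 0 h, a ratio of 168 with a 95% interval of 29.8 to 6660 for counting error only. The call of WRKY75 was also lost without 3 h replicate 1 (adjusted p = 0.0556) or 2 (0.0822), and that of WRKY38 without 0 h replicate 1 (0.0977) or 2 (0.318) or 3 h replicate 2 (0.424). That of WRKY30 at 8 h was lost without 0 h replicate 1 (0.207) or 8 h replicate 1 (0.0625) or 2 (0.079). Set against the response of pGL2 in Col-0, edgeR called no member at 3 h (0.0286% of all genes) or at 8 h (0.00953%). There were 9 and 4 members at an unadjusted p below 0.05, the smallest adjusted p values were 0.278 and 0.435, and DESeq2 called 0 at both times. The crossed pairing of the last section, added after seeing the data, did call members for this difference at both times. It also called more members than the unpaired fit in the response of pGL2(pGL2BRI1) itself.

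The libraries labelled pGL2(pSCRBRI1) had 2 called members at each time, where 0.224% of all genes were called at 3 h and 0.11% at 8 h. WRKY17 had 23.8 and 29.8 CPM at 0 h, 56.0 and 46.3 CPM at 3 h and 49.5 and 62.5 CPM at 8 h. WRKY11 had 26.6 and 29.3 CPM at 0 h, 69.0 and 47.7 CPM at 3 h and 53.4 and 68.4 CPM at 8 h. Both later pairs lay above the 0 h pair for both genes. The log2 changes of WRKY17 were 0.93 ± 0.205 at 3 h (adjusted p = 0.0398) and 1.06 ± 0.205 at 8 h (adjusted p = 0.0254), and those of WRKY11 were 1.06 ± 0.238 (adjusted p = 0.0464) and 1.12 ± 0.238 (adjusted p = 0.0459). With the replicate number as a block 4 members were called at 3 h and 5 at 8 h, WRKY11 and WRKY17 among them at both times. None of the 4 calls of these genes without the block passed without each single library. At 3 h WRKY17 was lost without any 1 of the 4 (adjusted p 0.0539 to 0.831) and WRKY11 without 0 h replicate 1 (0.803) or 2 (0.345) or 3 h replicate 1 (0.838). At 8 h WRKY11 was lost without any 1 of the 4 (adjusted p 0.0545 to 0.824) and WRKY17 without 0 h replicate 1 (0.497) or 2 (0.105) or 8 h replicate 2 (0.65). In pSCR(pSCRBRI1) edgeR called 0 members and 0% of all genes at each time, with 4 members at an unadjusted p below 0.05 at each time. DESeq2 called 0 at 3 h and WRKY40 at 8 h. Its response set against that of pSCR gave 0 called members and 0% of all genes at both times, with 2 members at an unadjusted p below 0.05 at each, a smallest adjusted p of 1.0 and 0 by DESeq2.

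The level of many members differed between the epidermis of pGL2(pGL2BRI1) and that of Col-0 plants. Averaged over the 3 times, 18 members were higher and 4 lower than in pGL2, or 22 of 44, against 35.7% of all tested genes. WRKY54 had 3.84 and 5.89 CPM at 0 h, 8.50 and 4.76 CPM at 3 h and 4.68 and 11.3 CPM at 8 h in pGL2(pGL2BRI1). In pGL2 it had 26.7 and 22.2 CPM at 0 h, 23.0 and 27.8 CPM at 3 h and 34.4 and 21.8 CPM at 8 h. All 6 libraries of pGL2(pGL2BRI1) lay below all 6 of pGL2, and the log2 change of WRKY54 was −2.03 ± 0.245 (adjusted p = 3.1e-07). WRKY43 had 3.75 and 8.57 CPM at 0 h, 2.95 and 1.87 CPM at 3 h and 1.37 and 5.69 CPM at 8 h in pGL2(pGL2BRI1). In pGL2 it had 16.0 and 44.4 CPM at 0 h, 9.61 and 28.4 CPM at 3 h and 12.2 and 2.23 CPM at 8 h. The groups overlapped for WRKY43, since pGL2 8 h replicate 2 was low, and its log2 change was −2.11 ± 0.463 (adjusted p = 0.000859). The other 2 lower members were the group III gene WRKY53, a regulator of leaf senescence (−1.46 ± 0.319), and WRKY31 (−1.16 ± 0.306).

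The highest members in pGL2(pGL2BRI1) were WRKY28, a IIc gene that promotes salicylic acid synthesis, with a log2 change of 1.63 ± 0.369, WRKY48 (1.61 ± 0.325), WRKY38 (1.58 ± 0.420), WRKY8 (1.48 ± 0.296), WRKY45 (1.40 ± 0.359) and WRKY63 (1.40 ± 0.542). The mean of WRKY63 rests on 3 h, with 19 and 7.65 CPM, against 0.723 and 0.827 CPM in pGL2. Its libraries overlapped those of pGL2 at 0 h and at 8 h, and those of WRKY38 did at 0 h. WRKY28 had 5.58 and 5.03 CPM at 0 h, 9.31 and 7.24 CPM at 3 h and 5.69 and 7.77 CPM at 8 h in pGL2(pGL2BRI1). In pGL2 it had 1.27 and 0.984 CPM at 0 h, 1.81 and 2.15 CPM at 3 h and 4.39 and 4.50 CPM at 8 h. All 6 libraries of pGL2(pGL2BRI1) lay above all 6 of pGL2. The abundant WRKY39 (0.39 ± 0.0902) and WRKY15 (1.14 ± 0.205) were higher as well. Without the 3 libraries rich in endodermis markers 15 of the 22 calls held, 2 further members were called, and the calls of WRKY2, WRKY21, WRKY26, WRKY39, WRKY46, WRKY63 and WRKY70 were lost. The log2 changes were then −2.93 for WRKY43, −2.57 for WRKY54, −2.17 for WRKY53, −1.19 for WRKY31, 1.49 for WRKY28 and 1.47 for WRKY48, while WRKY39 was at 0.24 (adjusted p = 0.0984), WRKY46 at 1.02 (adjusted p = 0.26) and WRKY63 at 0.09 (adjusted p = 0.994). WRKY15, which was highest in the endodermis among Col-0 fractions, was then at 0.60. Of the 22 calls 16 passed without each single library. Those of WRKY2, WRKY42, WRKY46, WRKY63 and WRKY70 were lost without 2 to 9 of the 12 libraries. Without pGL2(pGL2BRI1) 0 h replicate 2 WRKY63 had a log2 change of 0.64 (adjusted p = 0.661) and WRKY21, which no other library decided, one of 0.69 (adjusted p = 0.0876).

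**Figure D5:**
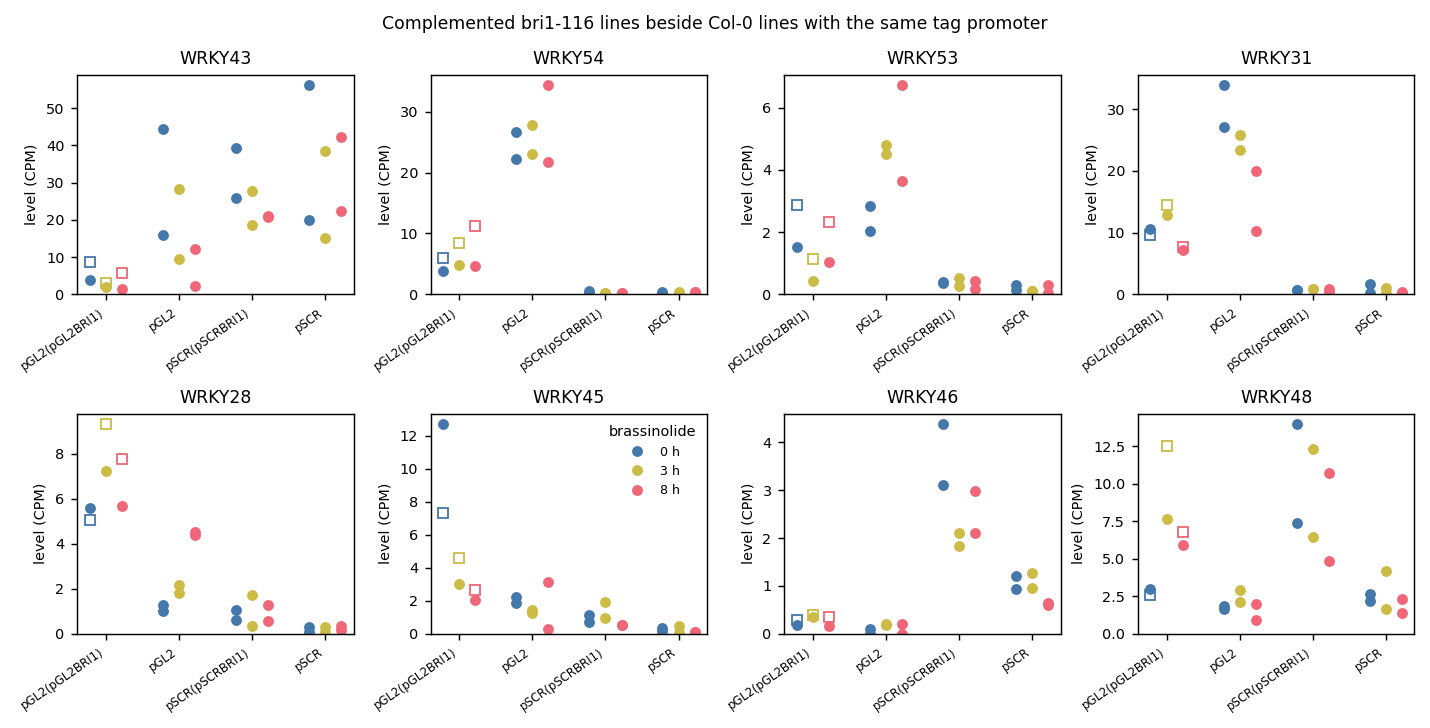
CPM on a linear axis of 8 WRKY loci (WRKY43, WRKY54, WRKY53, WRKY31, WRKY28, WRKY45, WRKY46 and WRKY48) in each library of pGL2(pGL2BRI1), pGL2, pSCR(pSCRBRI1) and pSCR at 0, 3 and 8 h of BL. Open squares mark the 3 pGL2(pGL2BRI1) libraries rich in endodermis markers; all 6 WRKY54 points of pGL2(pGL2BRI1) lie below the 6 of pGL2.

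At 0 h alone 8 members were higher and 2 lower in pGL2(pGL2BRI1) than in pGL2, or 10 of 44, against 11.4% of all tested genes. The higher ones were WRKY30 (log2 change 2.89), WRKY45 (2.30), WRKY28 (2.22), WRKY8 (1.97), WRKY75 (1.94), WRKY15 (1.12), WRKY47 (0.91) and WRKY39 (0.53), and the lower ones WRKY54 (−2.32) and WRKY31 (−1.60). WRKY30 had 14.9 and 5.6 CPM in pGL2(pGL2BRI1), against 1.27 and 1.48 CPM in pGL2. WRKY45, a IIc activator of the phosphate transporter gene PHT1;1, had 12.7 and 7.29 CPM in pGL2(pGL2BRI1), against 2.20 and 1.84 CPM in pGL2. Without the libraries rich in endodermis markers, at 0 h replicate 2 of pGL2(pGL2BRI1), 5 of the 10 calls were lost. The log2 changes were then 0.73 for WRKY15 (adjusted p = 0.251), 0.29 for WRKY39 (0.382), 0.89 for WRKY47 (0.156), 2.29 for WRKY28 (0.0944) and −1.53 for WRKY31 (0.217). The pairs of WRKY30 and of WRKY45 were apart, yet WRKY54 was the single member that passed without each of the 4 libraries. WRKY30 lost its call without pGL2 replicate 2 (adjusted p = 0.0616) or pGL2(pGL2BRI1) replicate 1 (0.0669), WRKY75 without pGL2 replicate 2 (0.148), and WRKY45 without either pGL2 library or pGL2(pGL2BRI1) replicate 1 (0.0768 to 0.158). WRKY8, WRKY15, WRKY28, WRKY31, WRKY39 and WRKY47 each lost theirs without 2 to 4 of the 4 libraries. Without 1 of the 4 libraries between 1 and 5 members were called.

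In pSCR(pSCRBRI1), set against pSCR over the 3 times, 9 members were higher and 1 lower, or 10 of 44, against 15.4% of all tested genes. WRKY48 (AT5G49520, chromosome 5, 20090776 to 20093346) had 7.36 and 14.0 CPM at 0 h, 6.43 and 12.3 CPM at 3 h and 4.85 and 10.7 CPM at 8 h in pSCR(pSCRBRI1). In pSCR it had 2.64 and 2.15 CPM at 0 h, 4.17 and 1.66 CPM at 3 h and 2.32 and 1.35 CPM at 8 h. WRKY46 had 4.38 and 3.11 CPM at 0 h, 1.84 and 2.11 CPM at 3 h and 2.99 and 2.11 CPM at 8 h in pSCR(pSCRBRI1), against 0.605 to 1.27 CPM over the 6 pSCR libraries. All 6 libraries of pSCR(pSCRBRI1) lay above all 6 of pSCR for both genes. The log2 changes were 1.97 ± 0.315 for WRKY48 (adjusted p = 4.5e-05) and 1.56 ± 0.322 for WRKY46 (adjusted p = 0.000985). WRKY38 had 11 counts in the 6 pSCR(pSCRBRI1) libraries, against 1 count in the 6 of pSCR, a ratio of 11 with a 95% interval of 1.60 to 473 for counting error only. The other higher members were WRKY45 (2.20 ± 0.493), WRKY28 (2.07 ± 0.498), WRKY51 (1.70 ± 0.430), WRKY60 (0.77 ± 0.181), WRKY17 (0.50 ± 0.118) and WRKY25 (0.49 ± 0.146), and WRKY1 was lower (−0.44 ± 0.124). WRKY38 (adjusted p 0.0813 in the fit of the compared groups only) also lost its call without 1 of 6 libraries (adjusted p 0.0568 to 0.104), WRKY25 without 1 of 5 (0.0652 to 0.13) and WRKY1 without 1 of 4 (0.0609 to 0.082). At 0 h alone WRKY48 was the single called member (2.15 ± 0.551, adjusted p = 0.0256), where 2.99% of all genes were called, and its call was lost without pSCR replicate 1 (0.13) or 2 (0.148) or pSCR(pSCRBRI1) replicate 2 (0.154).

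Since the libraries labelled pGL2(pSCRBRI1) carried the marker profile of the endodermis, they were set against pSCR as well as against pGL2. Against pGL2 at 0 h, 7 members were higher and 25 lower, or 32 of 44, against 47.9% of all tested genes. WRKY54 had 3 counts in pGL2(pSCRBRI1), against 1317 in pGL2, a ratio of 0.00203 with a 95% interval of 0.000417 to 0.00593. WRKY15 had 107 and 98.6 CPM in pGL2(pSCRBRI1), against 11.6 and 12.1 CPM in pGL2, a log2 change of 3.11 ± 0.373. The part of the marker difference in these changes was not tested. Against pSCR at 0 h edgeR called no member, where 0.972% of all genes were called, with 5 at an unadjusted p below 0.05 and 1, WRKY47, by DESeq2. Over the 3 times 11 members were higher than in pSCR and 0 lower, against 7.8% of all tested genes called. They were WRKY28 (log2 change 1.86 ± 0.505), WRKY48 (1.2 ± 0.314), WRKY22 (1.15 ± 0.282), WRKY47 (1.01 ± 0.167), WRKY40 (0.96 ± 0.243), WRKY60 (0.88 ± 0.181), WRKY33 (0.79 ± 0.173), WRKY7 (0.74 ± 0.143), WRKY15 (0.70 ± 0.197), WRKY11 (0.68 ± 0.137) and WRKY17 (0.46 ± 0.118). WRKY7, WRKY11, WRKY33, WRKY47 and WRKY60 passed without each single library, and the other 6 each lost their call without 1 to 9 of the 12. WRKY47, a IIb gene, had 15.3 and 18.6 CPM at 0 h, 26.0 and 29.3 CPM at 3 h and 15.9 and 18.7 CPM at 8 h in pGL2(pSCRBRI1). In pSCR it had 10 and 6.12 CPM at 0 h, 12.9 and 11.3 CPM at 3 h and 8.74 and 11.4 CPM at 8 h, and the groups did not overlap.

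Genes that act with WRKY factors were followed as lists. Among 12 tested kinases upstream of WRKY factors, 6 were higher and 0 lower in pGL2 than in 35S at 0 h, with MPK3 at a log2 change of 1.16, while 0 were higher and 4 lower in pSHR. Of all tested genes 23% were higher and 25.9% lower in pGL2, 12.4% and 22% in pSCR, and 7.73% and 18.9% in pSHR. Of 6 tested VQ partners of WRKY proteins, 2 were higher and 0 lower in pGL2, 1 higher and 4 lower in pSCR, and 0 higher and 4 lower in pSHR. SIB1, a VQ partner of WRKY33, was higher in pBRN2 (log2 change 3.22). Of 11 tested targets of WRKY factors, 4 were higher and 5 lower in pGL2, with PHT1;1 at 3.64, NHL10 at 3.51 and the camalexin gene PAD3 at −3.93. Of 12 tested salicylic acid genes 8 were higher and 2 lower in pGL2, and 0 higher and 7 lower in pSHR. Of 12 tested phosphate starvation genes 3 were higher and 4 lower in pBRN2, 4 higher and 3 lower in pGL2, 0 higher and 9 lower in pSCR, and 1 higher and 8 lower in pSHR. In pBRN2 18.1% of all tested genes were higher and 22.9% lower.

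After 3 h of BL, averaged over the 5 Col-0 lines, the targets NHL10 (log2 change 1.35) and FRK1 (1.07) were higher and 0 of the 11 lower, where 11.6% of all tested genes were called. Of the 15 tested genes of early stress, touch and wounding, ERF5 alone passed (−0.66). The brassinosteroid check genes responded at both times, with 2 of 10 higher and 6 lower, among them the BL-induced BEE1 at 1.48 and the biosynthesis gene BR6OX2 at −1.46 at 3 h. In pGL2(pGL2BRI1), set against pGL2 over the 3 times, where 35.7% of all tested genes were called, 5 of 6 VQ partners were higher and 0 lower, with SIB1 at 2.78, SIB2 at 0.90, JAV1 at 0.80 and MKS1 at 0.78. In the same comparison 8 of 15 early stress genes were higher and 0 lower, with TCH4 at 3.48, CML37 at 1.93 and TCH3 at 1.42. Of the 12 kinases 0 were higher and 5 lower there. In pSCR(pSCRBRI1), set against pSCR, where 15.4% of all tested genes were called, 2 of 6 VQ partners and 6 of 15 early stress genes were higher and 0 lower, with TCH3 at 3.70 and CML37 at 2.68. The summed VQ levels overlapped there, at 75.9 to 88.7 CPM in pSCR(pSCRBRI1), against 72.8 to 83.0 CPM in pSCR. In the libraries labelled pGL2(pSCRBRI1), set against pSCR, where 7.8% of all tested genes were called, 1 of 6 VQ partners and 8 of 15 early stress genes were higher and 0 lower. Their summed early stress levels ran from 246 to 322 CPM, against 165 to 193 CPM in pSCR. The part of the early stress genes in the differences of the WRKY genes was not tested.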

How the data were processed

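The values analysed were counts of reads per gene that the authors deposited as a single table. According to the design text and per the submitters' processing notes, 50-base single-end reads were aligned to TAIR10 with TopHat2 2.0.9 after FastQC 0.10.1, counted with HTSeq 0.5.3p3 and normalised with DESeq2 1.2.8; the raw counts were used here. The labels of 21 libraries note 51-base reads trimmed by the last base. They are all libraries of pSCR and pGL2(pSCRBRI1) and a library of each pair in pGL2, pGL2(pGL2BRI1) and pSCR(pSCRBRI1). No 35S, pBRN2 or pSHR library has the note, so the note and the tissue go together in pSCR against 35S. All 48 columns were matched to samples by title.

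Member rows were the entries whose identifier, up to the first dot or hyphen, equals a member locus, taking the row with most counts. The members and gene lists were chosen with earlier results of these data known. Genes were filtered with filterByExpr and scaled by TMM in edgeR 4.0.16 (R 4.3.3, limma 3.58.1). Quasi-likelihood tests were fitted with 1 coefficient for each of the 24 groups and contrasts between them. The estimated dispersion common to all genes was 0.0485, with a prior worth 6.2 degrees of freedom (median). P-values rest on the spread between library pairs, pooled over groups. Replicates of a group differed by more than sampling noise in every case. The script was tested on simulated counts.

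The alternatives were RLE scaling, no filter, the read note as a covariate, fits of the compared groups only, DESeq2 1.42.0, each library left out in turn with the dispersion trend held at its estimate from all libraries, and the replicate block. A crossed pairing and the removal of the 3 pGL2(pGL2BRI1) libraries rich in endodermis markers were added after seeing the data. The crossed pairing swapped the numbers at 8 h in 35S and pGL2 and at 3 h in pGL2(pGL2BRI1). There the replicate differences correlated negatively with those of 0 h. In pGL2 and pGL2(pGL2BRI1) the swapped pairs matched the read note. No label names the replicate number as a shared batch. The read note split the 2 libraries of each group in pGL2, pGL2(pGL2BRI1) and pSCR(pSCRBRI1). It followed the replicate number in pSCR(pSCRBRI1) but not in the other lines that it split. With 2 numbers a line the fit left out the block. Correlations of same-numbered libraries across times ranged from 0.44 to 0.778 in pBRN2, pSCR, pGL2(pSCRBRI1) and pSCR(pSCRBRI1) and from −0.766 to 0.763 in the other 4 lines. Up to 10 called members of a comparison are all named, and otherwise the 6 highest, the 6 lowest and the 3 most abundant of those called. Ratios and bounds from counts cover counting error only. Sequences and promoter shares come from RefSeq, assembly TAIR10.1, in which all 46 loci were matched by locus tag. No amino acid sequences were used.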

Additional observations from a re-analysis of the deposited data

Results flagged for a closer look

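In a few cases a member that was called after BL in 1 line had a log2 change of the opposite sign in another line, with no overlap between 0 h and the later time in either. None of the opposite changes passed the test (edgeR adjusted p 0.0829 to 1.0), although with the replicate block WRKY11 and WRKY17 were called as lower in pBRN2 at 8 h. The differences between lines were not tested directly. WRKY38 had a log2 change of 2.53 at 3 h in pGL2(pGL2BRI1) and of −1.01 in 35S. WRKY17 had a log2 change of 0.93 at 3 h in the libraries labelled pGL2(pSCRBRI1), and of −0.52 in 35S, −0.45 in pBRN2 and −0.24 in pSHR. At 8 h WRKY17 had a log2 change of 1.06 in pGL2(pSCRBRI1), and of −0.38 in 35S and −0.71 in pBRN2. WRKY11 had a log2 change of 1.12 at 8 h in pGL2(pSCRBRI1) and of −0.70 in pBRN2. In pSCR(pSCRBRI1), which also carried endodermis markers, neither gene was called after BL. WRKY17 there had 35.9 and 30.9 CPM at 0 h, 50.8 and 52.3 CPM at 3 h and 42.4 and 53.8 CPM at 8 h. WRKY11 had 30.2 and 29.6 CPM at 0 h, 32.6 and 39.4 CPM at 3 h and 34.9 and 43.1 CPM at 8 h. The later pairs lay above the 0 h pair for both genes.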

How the results depend on the processing

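No log2 change of a called member reversed its sign, and 2352 recomputed member values stayed past the threshold while 352 fell short of it. Whether the replicate numbers pair the samples is not given by the labels, and the data differ between lines. With the replicate block the count of called members was 3 (1 without it) in pBRN2 at 8 h, 1 (0) and 2 (1) in pGL2 at 3 and 8 h, 11 (4) and 6 (1) in pGL2(pGL2BRI1), 4 (2) and 5 (2) in pGL2(pSCRBRI1), 9 (5) and 4 (3) for the mean of the Col-0 lines at 3 and 8 h, 16 (10) for pGL2(pGL2BRI1) against pGL2 at 0 h, 2 (1) for pSCR(pSCRBRI1) against pSCR at 0 h and 1 (0) for pGL2(pSCRBRI1) against pSCR at 0 h. With crossed pairing it was 4 in 35S at 3 h, 3 and 9 in pGL2, 18 and 11 in pGL2(pGL2BRI1), 13 and 9 for the Col-0 mean, 3 for the difference among Col-0 lines at 8 h, and 3 and 2 for the response difference of the pGL2 pair. DESeq2 called 2 in pBRN2 at 8 h, 1 and 2 in pGL2, 9 and 3 in pGL2(pGL2BRI1), 1 in pSCR(pSCRBRI1) at 8 h, 1 for the difference among Col-0 lines at 8 h, 3 for pSCR(pSCRBRI1) and 1 for pGL2(pSCRBRI1) against pSCR at 0 h. Fits of the compared groups only gave 0 in pBRN2 at 8 h, 3 in pGL2 at 3 h, 2 (WRKY29 and WRKY75) and 0 in pGL2(pGL2BRI1), 1 in pGL2(pSCRBRI1) at 3 h and 1 for the Col-0 mean at 8 h, which was also 1 with no filter. RLE scaling gave 1 in pGL2(pSCRBRI1) at each time, and moved the median of all genes by 0.102 in pBRN2 against 35S. The read note gave 2 in pGL2(pGL2BRI1) at 8 h and 1 for pGL2(pSCRBRI1) against pSCR at 0 h. Without the libraries rich in endodermis markers there were 2 and 0 in pGL2(pGL2BRI1), and 5 against pGL2 at 0 h. Leaving out 1 library gave 18 to 21 in pBRN2, 23 to 25 in pGL2, 20 to 23 in pSCR and 21 to 25 in pSHR against 35S. After BL it gave 0 to 2 in pBRN2 and in pGL2 at 8 h, 2 to 3 and 0 to 1 in pGL2(pGL2BRI1), 0 to 2 in pGL2(pSCRBRI1) at each time, 2 to 6 and 0 to 5 for the Col-0 mean, and 0 to 1 for the response difference of the pGL2 pair at 8 h. Between lines it gave 1 to 5 for pGL2(pGL2BRI1) against pGL2 at 0 h and 17 to 21 over 3 times, 0 to 2 and 8 to 13 for pSCR(pSCRBRI1) against pSCR, and 6 to 12 for pGL2(pSCRBRI1) against pSCR over 3 times. The cause of these shifts was not tested. With 2 libraries a group and few counts, changes of the rarest members (WRKY38, WRKY46, WRKY63) were weakly resolved at this depth.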
